A study of Homo sapiens with 4 samples.

Results

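The genes described here encode the machinery that senses nutrients and energy and sets the activity of mTOR complex 1 (mTORC1) and of AMPK. Members were chosen as listed genes of 10 subgroups: the mTOR catalytic core with mTORC1, mTOR complex 2 (mTORC2), the TSC complex with RHEB, GATOR1, GATOR2, the amino acid sensors of GATOR2, KICSTOR, the Ragulator complex with SLC38A9, the substrates of mTORC1, and AMPK. The list holds 42 genes beside 34080 genes with a matched transcript in the whole data set. Of the 42, 41 had a matched transcript and 40 passed the low-count filter, of 13569 genes that passed it in all.

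The cells were HK-2, an immortalised human proximal tubule line, in which a Tet-On 3G system puts HA-tagged PRCC-TFE3 under the control of doxycycline. PRCC-TFE3 is a fusion of PRCC with the transcription factor TFE3 that is found in renal cell carcinoma. Doxy(+) cultures received doxycycline at 0.2 microg/ml for 24 h and Doxy(-) cultures received none, and each group had 2 RNA libraries. Cells of both groups carried the inducible transgene, and both were grown in medium with 1.5% serum. Cells without the transgene were not analysed here, so the effects of doxycycline and of PRCC-TFE3 cannot be told apart. The labels do not say whether libraries 1 and 2 came from separate clones, cultures or days, so p-values measure the spread between these libraries, which may be technical.

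Estimated counts summed to between 14042545 and 16618401 per library. TFE3, whose transcripts may also take up reads of the fusion, measured 66.9 and 69.1 CPM (counts scaled to library size) in Doxy(-), against 367 and 322 CPM in Doxy(+). On the log2 scale TFE3 was higher by 2.34 (SE 0.072, adjusted p = 4.78e-05 by edgeR's quasi-likelihood test). PRCC gave 50.2 and 47.2 CPM in Doxy(-), with 47.7 and 60.1 CPM in Doxy(+), and the groups overlapped. Of the proximal tubule markers, 5 of 9 reached 1 CPM, their summed level ran from 79.8 to 80.4 CPM in Doxy(-) and from 96.6 to 103 CPM in Doxy(+), and ANPEP, LRP2 and AQP1 were at or near 0. The renal epithelial marker PAX8 ran from 565 to 605 CPM, and the 4 renal epithelial markers measured summed to 1303 and 1326 CPM in Doxy(-) and to 1177 and 1181 CPM in Doxy(+). The other 3 of these 4 fell: CDH6 by 0.94 on the log2 scale (edgeR adjusted p = 0.000237), KRT8 by 0.24 (edgeR adjusted p = 0.00376) and KRT18 by 0.24 (edgeR adjusted p = 0.0142). The KRT18 call was lost without Doxy(+) 1 (-0.26, edgeR adjusted p = 0.0679) and without Doxy(+) 2 (-0.22, edgeR adjusted p = 0.0994). Of the proximal tubule markers MME rose by 1.31 on the log2 scale (edgeR adjusted p = 0.00264). Of 5 markers of other nephron segments 1 reached 1 CPM, and of 4 leukocyte and endothelial markers only CD68 did. CD68, which encodes a lysosomal membrane protein, had 144 and 149 CPM in Doxy(-), against 190 and 189 CPM in Doxy(+). The part of these markers in the results was not tested. In bulk RNA, fewer cells of a type and less RNA per cell cannot be told apart.

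mTORC1 is a kinase complex that promotes protein synthesis and cell growth and restrains autophagy when amino acids and growth factors are plentiful. Amino acids act through the lysosomal surface, where Ragulator anchors the Rag GTPases, GATOR1 switches them off and GATOR2 opposes GATOR1, while growth factors act through the TSC complex, which switches off the small GTPase RHEB. AMPK is a kinase of alpha, beta and gamma subunits that is activated when cellular energy falls and restrains mTORC1. In the kidney, loss of TSC1, TSC2 or folliculin gives rise to renal tumours, and mTORC1 in turn keeps TFE3 and its relatives out of the nucleus through the Rag GTPases.

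TFE3 and its relatives bind the E-box CACGTG, and the longer form TCACGTG lies in the element that they recognise upstream of many lysosomal genes. RefSeq promoter windows, from 250 bases before to 50 bases after the gene start on GRCh38.p14, were held for 36 of the 42 members. CACGTG, which reads the same on both strands, lay in a window of 5 of these 36 members (13.9%), beside 8.77% of all genes with a window and 12.7% of the genes tested that have one. The form TCACGTG, searched on both strands and by its letters always overlapping the shorter one, lay in a window of 3 of the 36 members (8.33%), beside 4.49% of all genes and 7.44% of the genes tested. The share among members was thus near that of the tested genes. The members with TCACGTG are shown because 2 of them, LAMTOR4 and LAMTOR1, rose in Doxy(+) and TSC2 did not pass the test. For each, the 250 bases before the gene start are given from 5′ to 3′ on the strand of the gene, with TCACGTG on either strand in capitals.
LAMTOR4: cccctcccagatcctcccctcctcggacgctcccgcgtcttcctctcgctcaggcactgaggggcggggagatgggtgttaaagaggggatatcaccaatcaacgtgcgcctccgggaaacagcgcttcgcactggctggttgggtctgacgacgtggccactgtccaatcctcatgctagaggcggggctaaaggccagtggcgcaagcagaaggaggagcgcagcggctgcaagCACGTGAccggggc
LAMTOR1: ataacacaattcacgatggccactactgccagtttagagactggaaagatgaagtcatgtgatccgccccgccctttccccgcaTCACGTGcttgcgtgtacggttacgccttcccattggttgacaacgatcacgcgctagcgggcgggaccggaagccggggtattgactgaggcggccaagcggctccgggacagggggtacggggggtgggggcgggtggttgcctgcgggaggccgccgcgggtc
TSC2: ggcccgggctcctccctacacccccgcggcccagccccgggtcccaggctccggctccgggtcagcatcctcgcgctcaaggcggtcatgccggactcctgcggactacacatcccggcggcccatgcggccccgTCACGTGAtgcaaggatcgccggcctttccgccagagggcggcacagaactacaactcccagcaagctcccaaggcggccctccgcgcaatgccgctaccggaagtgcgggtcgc
These windows are chr7:100148668-100148917 on the plus strand for LAMTOR4, chr11:72103298-72103547 on the minus strand for LAMTOR1 and chr16:2047735-2047984 on the plus strand for TSC2. Counted from the gene start, CACGTG began at -14 in LAMTOR4, at -165 in LAMTOR1 and at -114 in TSC2. In TSC2 the longer form was present on both strands, overlapping itself. The shorter form alone began at -222 in PRR5, which rose, and at 25 after the start in NPRL3, which did not pass the test. A match of letters is a description and does not show binding.

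To ask how the machinery moved when PRCC-TFE3 was switched on, the 40 members were read from a test fitted across all 13569 genes. A member is said to rise or fall where edgeR's quasi-likelihood test gave a Benjamini-Hochberg adjusted p under 0.05, and this value is called the edgeR adjusted p below. By this rule 6 members rose (PRR5, TSC1, TBC1D7, LAMTOR1, LAMTOR3 and LAMTOR4) and 2 fell (RPS6KB1 and PRKAG2). On hg38, the genes that rose lie at chr22:44668547-44737681 (PRR5), chr9:132891348-132946874 (TSC1), chr6:13266542-13328583 (TBC1D7), chr11:72085895-72103297 (LAMTOR1), chr4:99878336-99894428 (LAMTOR3) and chr7:100148912-100155944 (LAMTOR4), and those that fell at chr17:59893046-59950574 (RPS6KB1) and chr7:151556124-151877214 (PRKAG2). The 8 called members were 20.0% of those tested, beside 19.3% of all genes tested, so the share called was near the background. In the higher direction the shares were 15.0% of members and 9.76% of all genes, and in the lower direction 5.0% of members and 9.53% of all genes. No member passed with a change of more than 2-fold, by edgeR's or by DESeq2's adjusted p, and 0 did at an unadjusted p under 0.05, whereas 1.98% of all genes passed both the adjusted p and that limit.

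The members' log2 fold changes, Doxy(+) over Doxy(-), ran from -0.60 for PRKAG2 to 0.56 for LAMTOR4 with a median of 0.02, beside a median of 0.0006 over all genes. The 2 Doxy(+) libraries lay above both Doxy(-) libraries for 14 of 40 members, beside 31.1% of all genes, and below both for 7, beside 30.0% (61.1% of all genes in either direction). Without the library Doxy(+) 1, 2 members rose (LAMTOR3 and LAMTOR4) and 1 fell (PRKAG2), while over all genes 647 rose and 565 fell in place of 1325 and 1293. Without Doxy(-) 2 or without Doxy(+) 2, 1 member fell.

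**Figure D1:**
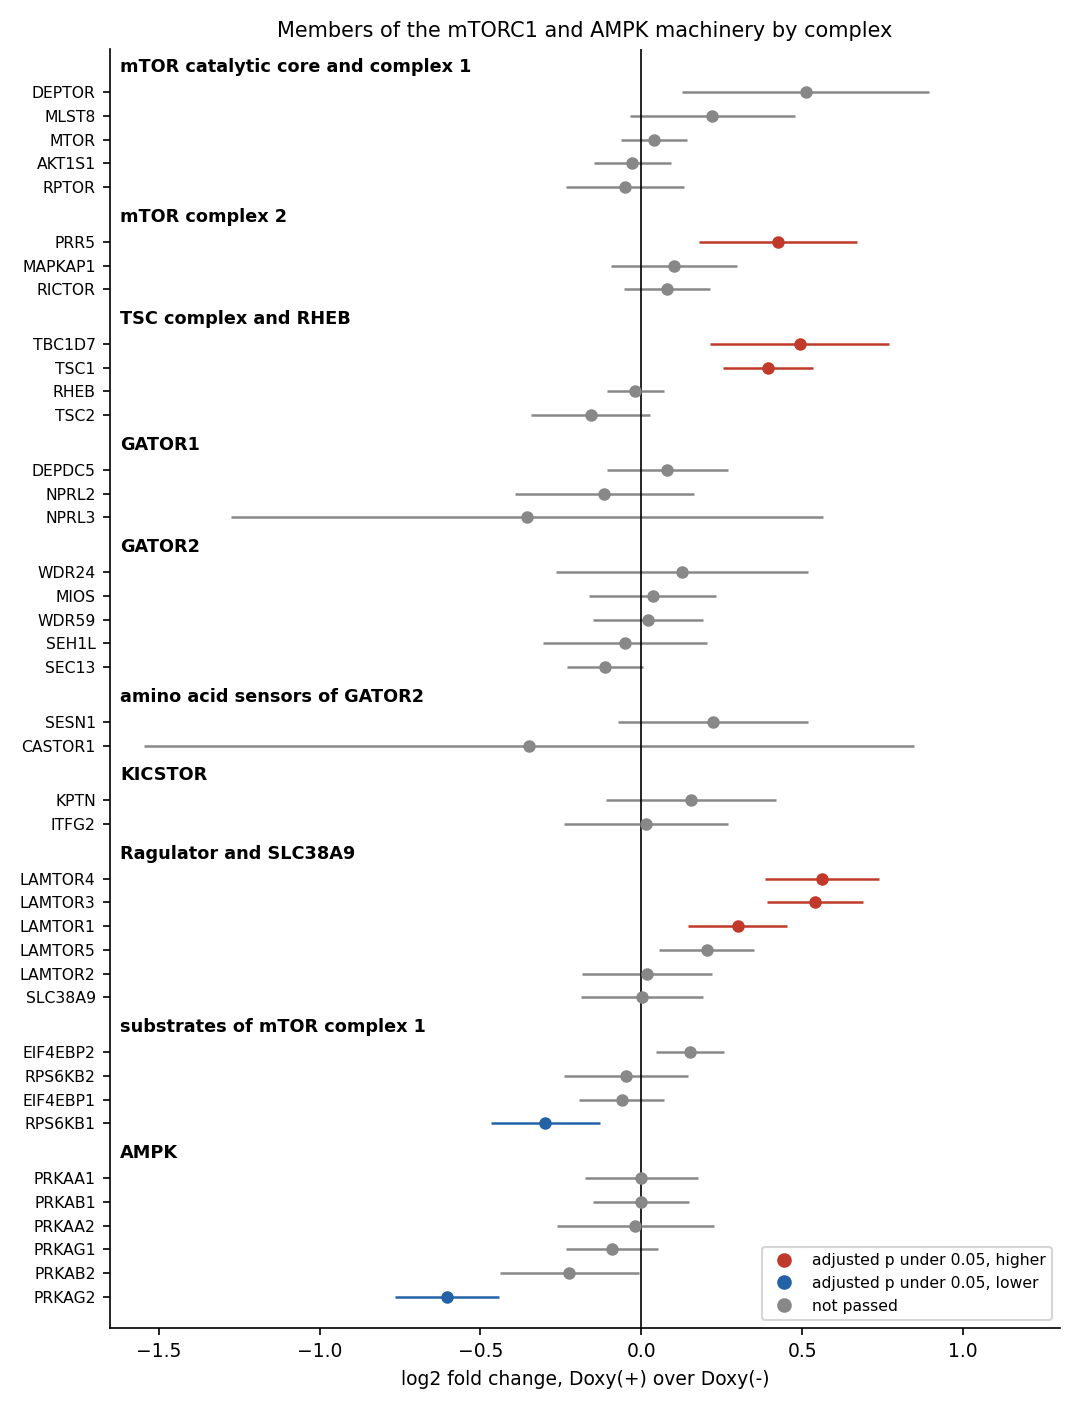
Log2 fold change of each of the 40 members tested, Doxy(+) over Doxy(-), by complex, with its 95% confidence interval from edgeR. Members with an adjusted p under 0.05 are red (6, higher) or blue (2, lower), and 3 of the 6 red points belong to Ragulator.

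**Figure D2:**
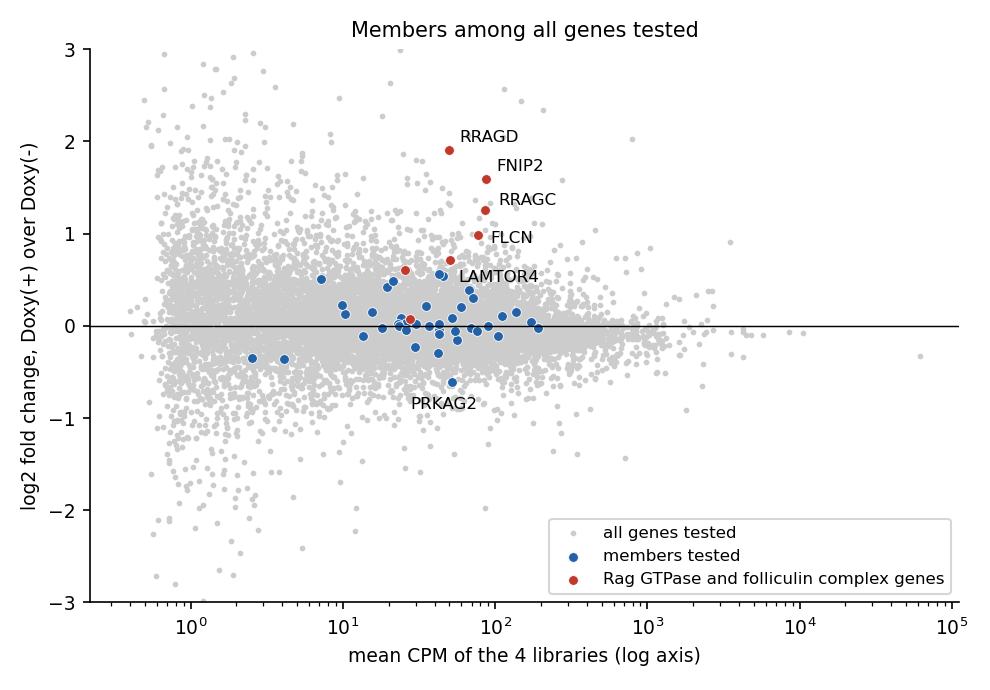
Log2 fold change, Doxy(+) over Doxy(-), against the mean CPM of the 4 libraries on a log axis for the genes tested (grey), the 40 members (blue) and 7 Rag GTPase and folliculin complex genes (red). Members lie between -0.60 and 0.56, with RRAGD, FNIP2 and RRAGC above them, and 29 genes fall outside the plotted range of -3 to 3.

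Ragulator, the scaffold of LAMTOR1 to LAMTOR5 that holds the Rag GTPases on the lysosome was considered together with SLC38A9, a lysosomal arginine sensor that binds it. Of these 6 genes 3 rose (beside 9.76% of all genes) and none fell (beside 9.53%), with a median log2 fold change of 0.25. In the TSC subgroup 2 of 4 rose, the same share. LAMTOR4 lay at 36.2 and 33.3 CPM in Doxy(-), compared with 53.3 and 49.1 CPM in Doxy(+). LAMTOR3 had 36.3 and 38.3 CPM in Doxy(-), against 55.5 and 53.0 CPM in Doxy(+). For both genes the groups stood well apart. LAMTOR4 rose by 47.6% (log2 fold change 0.56, SE 0.073, edgeR adjusted p = 0.00437) and LAMTOR3 by 45.3% (log2 fold change 0.54, SE 0.061, edgeR adjusted p = 0.00278). Both passed under all 15 alternative analyses by edgeR, DESeq2 and limma, with adjusted p up to 0.0340 for LAMTOR4 and 0.0241 for LAMTOR3. These are sums over all transcripts of a gene. The protein-coding LAMTOR4-201 was at 271 and 289 estimated counts in Doxy(-) and at 234 and 317 in Doxy(+), which overlapped. LAMTOR3-203, annotated without a defined coding sequence, was at 266 and 260 in Doxy(-) and at 411 and 391 in Doxy(+). It carried between 46.2% and 57.5% of the LAMTOR3 count. Such values rest on how the authors' quantifier divided reads between transcripts. LAMTOR3 has 2 annotated pseudogenes, and exons of LAMTOR4 overlap TRAPPC14 on the opposite strand.

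LAMTOR1, the subunit that ties the scaffold to the lysosomal membrane through its lipid anchor, gave 67.8 and 61.5 CPM in Doxy(-), with 80.0 and 78.9 CPM in Doxy(+). Both Doxy(+) libraries were higher, and the gene rose by 23.0% (log2 fold change 0.30, SE 0.063, edgeR adjusted p = 0.0236). This call was lost without Doxy(+) 1 (log2 fold change 0.29, edgeR adjusted p = 0.124) and without Doxy(+) 2 (0.31, edgeR adjusted p = 0.0940), and over the 15 alternatives the adjusted p ran from 0.00793 to 0.152. LAMTOR5 lay at 54.9 and 56.3 CPM in Doxy(-), compared with 66.3 and 61.7 CPM in Doxy(+). Its groups did not overlap, but it did not pass (log2 fold change 0.20, SE 0.060, edgeR adjusted p = 0.0672). LAMTOR2, the dimer partner of LAMTOR3, had 31.1 and 29.3 CPM in Doxy(-), against 32.2 and 28.9 CPM in Doxy(+), which overlapped (log2 fold change 0.02, 95% confidence interval -0.19 to 0.22). SLC38A9 gave 23.7 and 23.0 CPM in Doxy(-), with 23.4 and 23.3 CPM in Doxy(+), with an interval of the log2 fold change from -0.19 to 0.19.

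**Figure D3:**
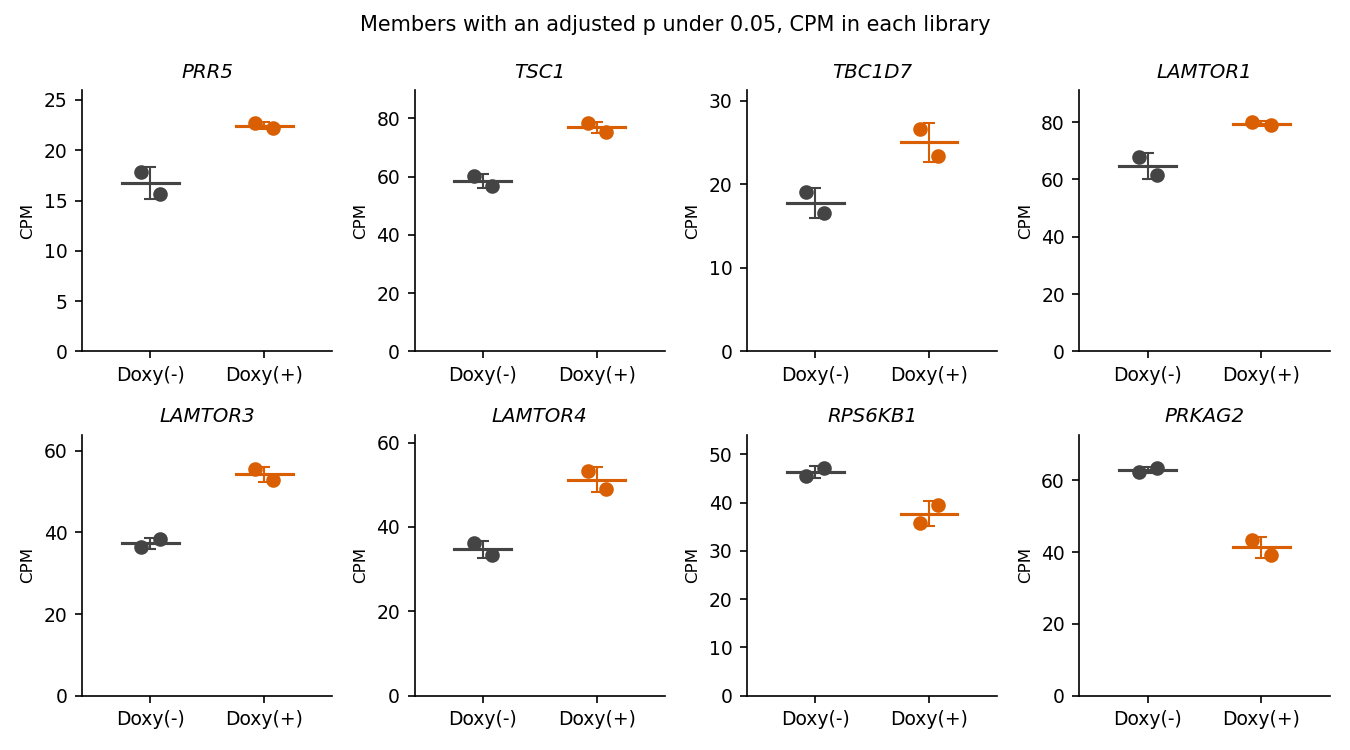
CPM of the 8 members with an adjusted p under 0.05, each panel with its own linear axis from 0. Points are the 2 libraries of each group, lines the means and bars the SD, and in every panel the 2 groups do not overlap.

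Levels between genes can be compared per transcript length, as TPM, an abundance that the quantifier scales by transcript length. In Doxy(-), LAMTOR5 had the highest mean level of the scaffold genes at 160 ± 5.43 TPM (SD, n = 2) and LAMTOR3 the lowest at 44.6 ± 0.981 TPM. Between them lay LAMTOR4 at 101 ± 7.19, LAMTOR1 at 98.2 ± 9.81 and LAMTOR2 at 82.4 ± 4.88 TPM, of which LAMTOR4 and LAMTOR1 did not differ beyond their spread. In Doxy(+), the order was LAMTOR5 at 192 ± 7.98, LAMTOR4 at 155 ± 12.4, LAMTOR1 at 120 ± 2.62, LAMTOR2 at 83.5 ± 5.83 and LAMTOR3 at 67.8 ± 3.61 TPM, with no overlap between neighbours. As a share of the summed TPM of the scaffold genes, LAMTOR4 went from 20.8% to 25.1% and LAMTOR3 from 9.18% to 11.0%, while LAMTOR2 went from 16.9% to 13.5%.

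**Figure D4:**
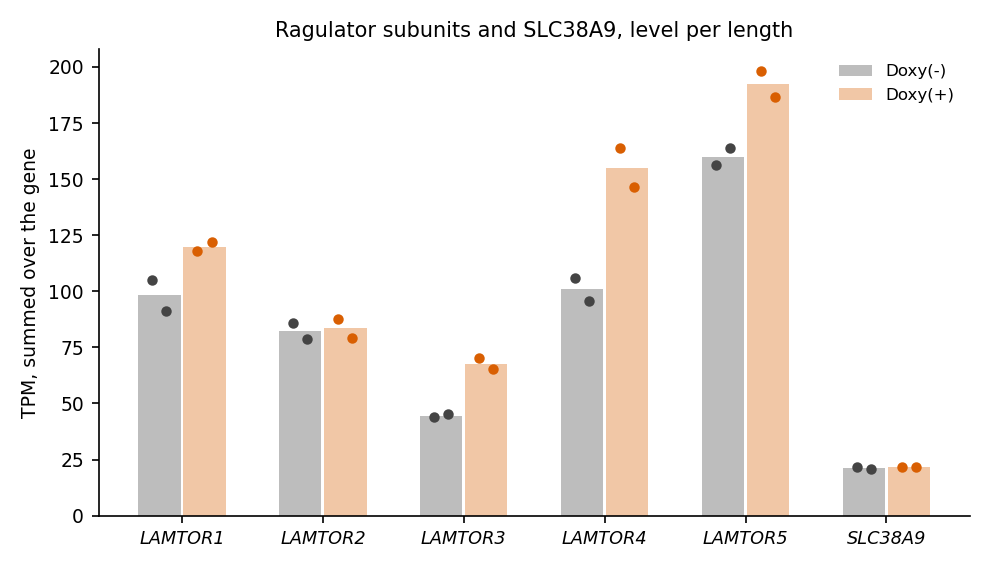
TPM summed over each gene for the 5 Ragulator genes and SLC38A9, with bars for the group means and points for the 2 libraries of each group. LAMTOR5 is highest in both groups, and the level of SLC38A9 lies between 20.7 and 21.9 TPM in the 4 libraries.

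The Rag GTPases and the folliculin complex act on this scaffold. Of these 7 genes 6 rose (85.7%, beside 9.76% of all genes), with a median log2 fold change of 0.98, among them RRAGD from 20.7 and 21.0 to 78.4 and 77.9 CPM (log2 fold change 1.90), FNIP2 (1.59), RRAGC (1.26) and FLCN (0.98).

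The TSC complex is the brake on RHEB. Of its subunits TSC1 and TBC1D7 rose, while TSC2, which carries the catalytic GTPase-activating domain, did not pass. TSC1 lay at 60.4 and 56.8 CPM in Doxy(-), compared with 78.3 and 75.5 CPM in Doxy(+). TBC1D7, the smallest subunit, had 19.1 and 16.5 CPM in Doxy(-), against 26.6 and 23.4 CPM in Doxy(+). The groups did not overlap for either gene. TSC1 rose by 31.3% (log2 fold change 0.39, SE 0.057, edgeR adjusted p = 0.00642) and TBC1D7 by 40.6% (log2 fold change 0.49, SE 0.114, edgeR adjusted p = 0.0320). Exons of TSC1 overlap GFI1B and those of TBC1D7 overlap PHACTR1, each on the opposite strand.

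TSC2 gave 56.9 and 62.3 CPM in Doxy(-), with 50.9 and 56.1 CPM in Doxy(+). Its Doxy(+) libraries were the lower ones (log2 fold change -0.16, SE 0.076, edgeR adjusted p = 0.210). RHEB, the GTPase that activates mTORC1, lay at 194 and 188 CPM in Doxy(-), compared with 189 and 189 CPM in Doxy(+), and its log2 fold change of -0.02 had a 95% confidence interval from -0.11 to 0.07. With 272 ± 3.91 TPM in Doxy(-) and 271 ± 1.43 TPM in Doxy(+) (SD, n = 2), RHEB had the highest level per length among the members. Without Doxy(+) 1 neither TSC1 (log2 fold change 0.37, edgeR adjusted p = 0.0539) nor TBC1D7 (0.39, edgeR adjusted p = 0.146) passed, and without Doxy(-) 2 TBC1D7 did not (0.39, edgeR adjusted p = 0.0809). Over the 15 alternatives the adjusted p of TSC1 ran from 0.00014 to 0.117 and that of TBC1D7 from 0.0167 to 0.146.

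The kinase itself and its mTORC1 partners did not pass the test. MTOR had 174 and 165 CPM in Doxy(-), against 174 and 173 CPM in Doxy(+). Its groups overlapped, and the 95% confidence interval of its log2 fold change ran from -0.06 to 0.14. RPTOR, which recruits substrates to mTORC1, had a log2 fold change of -0.05 (interval -0.23 to 0.13), and AKT1S1, which encodes the inhibitory subunit PRAS40, had -0.03 (interval -0.15 to 0.09). MLST8, a subunit of both mTOR complexes, gave 32.6 and 32.4 CPM in Doxy(-), with 33.9 and 41.7 CPM in Doxy(+), with only Doxy(+) 2 far above the rest (log2 fold change 0.22, SE 0.105, edgeR adjusted p = 0.203).

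DEPTOR, an inhibitor bound to mTOR, had the smallest p of this subgroup. It lay at 5.97 and 5.78 CPM in Doxy(-), compared with 8.93 and 7.82 CPM in Doxy(+), from between 77 and 115 counts a library. The groups did not overlap, and its log2 fold change of 0.51 (SE 0.158) passed at an unadjusted p but not after adjustment (edgeR adjusted p = 0.0750).

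In mTORC2, which phosphorylates AKT and SGK kinases, 1 of 3 specific subunits rose, beside 9.76% of all genes. PRR5, a subunit that binds RICTOR, had 17.8 and 15.7 CPM in Doxy(-), against 22.7 and 22.2 CPM in Doxy(+). Its groups stood apart, and it rose by 34.1% (log2 fold change 0.42, SE 0.101, edgeR adjusted p = 0.0345). It passed in 7 of the 15 alternatives, the fewest of the 8 called members. The call was lost without Doxy(-) 2 (log2 fold change 0.33, edgeR adjusted p = 0.111), without Doxy(+) 1 (0.41, edgeR adjusted p = 0.133) and without Doxy(+) 2 (0.44, edgeR adjusted p = 0.106), and over the 15 alternatives the adjusted p ran from 0.0288 to 0.133. Exons of PRR5 are shared with the readthrough gene PRR5-ARHGAP8, so its reads may be divided. RICTOR, the scaffold that defines mTORC2, and MAPKAP1, which encodes the substrate-binding subunit SIN1, had log2 fold changes of 0.08 (interval -0.05 to 0.21) and 0.10 (interval -0.09 to 0.30).

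No gene of GATOR1, GATOR2, the amino acid sensors or KICSTOR passed edgeR's test or DESeq2, and none did at an unadjusted p under 0.05 by edgeR. The 3 genes of GATOR1, the GTPase-activating complex that switches off RRAGA and RRAGB, had a median log2 fold change of -0.11, which was 0.06 without Doxy(-) 1. DEPDC5, the GATOR1 gene with the smallest p, gave 23.0 and 23.5 CPM in Doxy(-), with 24.3 and 24.9 CPM in Doxy(+), a difference in level of 0.08 on the log2 scale (SE 0.077, edgeR adjusted p = 0.523). NPRL3 lay at 6.13 and 3.06 CPM in Doxy(-), compared with 2.95 and 4.17 CPM in Doxy(+), so that Doxy(-) 1 stood above the other 3 libraries and the interval of its log2 fold change ran from -1.27 to 0.56. NPRL2 had 13.3 and 14.8 CPM in Doxy(-), against 12.4 and 13.5 CPM in Doxy(+), which overlapped.

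The 5 genes of GATOR2, the complex that restrains GATOR1, had log2 fold changes from -0.11 for SEC13 to 0.13 for WDR24. SEC13, which also serves in the nuclear pore and in COPII vesicle coats, gave 109 and 109 CPM in Doxy(-), with 97.9 and 104 CPM in Doxy(+). Both Doxy(+) libraries were lower, without passing (SE 0.049, edgeR adjusted p = 0.168). SEC13 also had the highest GATOR2 level per length in Doxy(-), 123 ± 0.207 TPM (SD, n = 2), against 5.57 ± 1.37 TPM for WDR24, the lowest.

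Of the sensors that bind GATOR2, SESN1, a sestrin that binds leucine, lay at 8.92 and 9.39 CPM in Doxy(-), compared with 10.6 and 10.7 CPM in Doxy(+). Its groups did not overlap, and its log2 fold change of 0.22 (SE 0.121) did not pass (edgeR adjusted p = 0.262). CASTOR1, an arginine sensor, had 4.19 and 1.50 CPM in Doxy(-), against 2.25 and 2.16 CPM in Doxy(+), with Doxy(-) 1 alone high. The interval of its log2 fold change, from -1.55 to 0.85, reaches past 2-fold only in the lower direction. SESN3 stayed under the low-count filter with 0.233 and 0.204 CPM in Doxy(-), against 0.544 and 0.447 CPM in Doxy(+). A level of 3 counts, the limit that a count of 0 allows, was between 0.204 and 0.233 CPM, so the Doxy(-) libraries were at that limit, and SESN3 was not tested. CASTOR2 was not measured by the identifiers matched here.

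KICSTOR tethers GATOR1 to the lysosome. KPTN gave 15.7 and 13.8 CPM in Doxy(-), with 16.5 and 16.2 CPM in Doxy(+), a log2 difference of 0.15 that did not pass (SE 0.108, edgeR adjusted p = 0.378). ITFG2 had a log2 fold change of 0.02 with an interval from -0.24 to 0.27, and its exons overlap FOXM1 and NRIP2 on the opposite strand.

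Among the substrates through which mTORC1 drives translation, the S6 kinase gene RPS6KB1 fell. It lay at 45.5 and 47.3 CPM in Doxy(-), compared with 35.9 and 39.6 CPM in Doxy(+). Both Doxy(+) libraries were lower, and the change was -18.7% (log2 fold change -0.30, SE 0.069, edgeR adjusted p = 0.0319). The call was lost without Doxy(-) 2 (log2 fold change -0.27, edgeR adjusted p = 0.0727), without Doxy(+) 1 (-0.23, edgeR adjusted p = 0.173) and without Doxy(+) 2 (-0.37, edgeR adjusted p = 0.0572), and over the 15 alternatives the adjusted p ran from 0.0203 to 0.173. The related kinase gene RPS6KB2 had 26.8 and 26.2 CPM in Doxy(-), against 24.6 and 26.6 CPM in Doxy(+), which overlapped. On the TPM scale RPS6KB1 gave 49.1% of the summed S6 kinase level in Doxy(-) and 45.4% in Doxy(+).

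EIF4EBP1 and EIF4EBP2 encode repressors of cap-dependent translation that mTORC1 phosphorylates. EIF4EBP2 gave 131 and 130.0 CPM in Doxy(-), with 141 and 148 CPM in Doxy(+). Its groups did not overlap, and its log2 fold change of 0.15 (SE 0.043) passed at an unadjusted p but not after adjustment (edgeR adjusted p = 0.0591). EIF4EBP1 lay at 76.6 and 79.3 CPM in Doxy(-), compared with 76.7 and 72.8 CPM in Doxy(+), with an interval of the log2 fold change from -0.19 to 0.07. EIF4EBP1 gave 86.5% of the summed TPM of this pair in Doxy(-) and 84.5% in Doxy(+). Most of this was EIF4EBP1-202, annotated without a defined coding sequence, at 127 and 135 TPM in Doxy(-) and 123 and 119 TPM in Doxy(+). The protein-coding EIF4EBP1-201 was at 37.3 and 35.5 TPM in Doxy(-) and 43.0 and 39.4 TPM in Doxy(+). EIF4EBP2 was at 26.2 and 25.9 TPM in Doxy(-) and 29.1 and 30.5 TPM in Doxy(+), so the share does not compare coding transcripts. Both genes have annotated pseudogenes.

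In AMPK, the gene of the gamma 2 subunit, PRKAG2, fell and the other 5 genes did not pass. The gamma subunits bind AMP and so sense energy. PRKAG2 had 62.3 and 63.4 CPM in Doxy(-), against 43.4 and 39.3 CPM in Doxy(+). The groups stood far apart relative to their spread, and the change was -34.2% (log2 fold change -0.60, SE 0.066, edgeR adjusted p = 0.00246). The call held whichever library was left out, and over the 15 alternatives the adjusted p ran from 6.26e-08 to 0.1003. It was lost with length-scaled counts and with limma on TPM, where Doxy(+) 1 and 2 lay apart at 48.9 and 34.3 TPM. The transcript PRKAG2-203, of 2318 bases, carried between 79.1% and 90.7% of the gene's estimated count in each library.

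PRKAG1, the gene of the gamma 1 subunit, gave 43.1 and 44.6 CPM in Doxy(-), with 40.3 and 42.1 CPM in Doxy(+), a log2 difference of -0.09 that did not pass (SE 0.059, edgeR adjusted p = 0.340). The share of PRKAG2 in the summed TPM of both gamma genes came to 56.0% and 55.4% in the Doxy(-) libraries, against 51.3% and 40.8% in Doxy(+). The shares did not overlap, with a mean difference of -9.63 percentage points, and the two-sided exact permutation test gave p = 0.333, the smallest value that 2 against 2 libraries allow.

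The genes of the catalytic alpha subunits did not pass. PRKAA1 lay at 85.3 and 95.4 CPM in Doxy(-), compared with 94.0 and 86.8 CPM in Doxy(+). PRKAA2 had 17.1 and 19.1 CPM in Doxy(-), against 18.3 and 17.6 CPM in Doxy(+). Both overlapped, with intervals of the log2 fold change from -0.18 to 0.17 and from -0.26 to 0.22. On the TPM scale the PRKAA1 libraries did not overlap, at 63.5 and 61.7 TPM in Doxy(-) and at 59.2 and 53.8 TPM in Doxy(+). PRKAA1 made up 95.7% of the summed alpha TPM in Doxy(-) and 95.2% in Doxy(+).

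The beta subunits join alpha to gamma. PRKAB1 gave 35.8 and 37.3 CPM in Doxy(-), with 36.5 and 36.5 CPM in Doxy(+), with an interval from -0.15 to 0.15. PRKAB2 lay at 31.3 and 32.7 CPM in Doxy(-), compared with 29.3 and 25.6 CPM in Doxy(+). The PRKAB2 groups did not overlap, and its log2 fold change of -0.22 (SE 0.089) passed at an unadjusted p but not after adjustment (edgeR adjusted p = 0.138). PRKAB1 gave 73.9% of the summed beta TPM in Doxy(-) and 78.1% in Doxy(+).

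**Figure D5:**
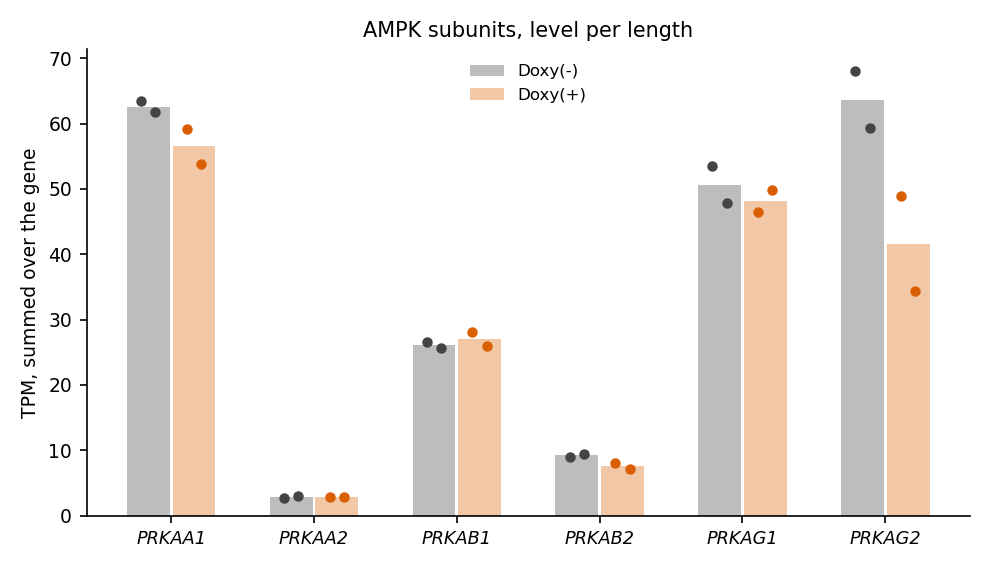
TPM summed over each gene for the 6 AMPK subunit genes, with bars for the group means and points for the 2 libraries of each group. The libraries of PRKAA2, PRKAB1 and PRKAG1 overlap between groups, while PRKAG2 lies at 68.0 and 59.4 TPM in Doxy(-) and at 48.9 and 34.3 TPM in Doxy(+).

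Beyond the members, 45 further genes of the pathway were listed and 44 were tested, since ACACA had no matched transcript. Of the 44, 12 rose (27.3%, beside 9.76% of all genes) and 9 fell (20.5%, beside 9.53%), and 3 (RRAGC, RRAGD and FNIP2) passed the 2-fold limit. These counts include the 6 Rag and folliculin genes that rose. Without Doxy(+) 1, 7 rose and 3 fell, and without Doxy(+) 2, 3 fell. In the growth factor branch, the PI3K and AKT input, 4 of 13 genes rose and 3 fell. IRS1, which couples the insulin receptor to PI3K, had 144 and 144 CPM in Doxy(-), against 100.3 and 103 CPM in Doxy(+). It fell by 0.51 on the log2 scale (SE 0.040, edgeR adjusted p = 0.000786). Of 10 outputs of the mTOR complexes 2 rose and 3 fell, among them SGK1, a kinase activated by mTORC2, which gave 68.5 and 68.9 CPM in Doxy(-), with 42.3 and 38.3 CPM in Doxy(+) (log2 fold change -0.77, SE 0.066, edgeR adjusted p = 0.000991).

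Of 6 AMPK kinases and substrates tested none rose (beside 9.76% of all genes) and 3 fell (beside 9.53%), namely CAB39, STK11 and CAMKK2, of which only CAB39 passed whichever library was left out. STK11 encodes LKB1, the main upstream kinase of AMPK, CAB39 its scaffold partner MO25 and CAMKK2 a calcium-dependent AMPK kinase. Their log2 fold changes were -0.38 for CAB39, -0.23 for STK11 and -0.23 for CAMKK2. These genes were named after their values were seen. STK11 did not pass without Doxy(-) 1, Doxy(+) 1 or Doxy(+) 2 (log2 fold change between -0.25 and -0.19), and CAMKK2 lost its call whichever of the 4 libraries was left out (between -0.27 and -0.20). None of 4 assembly factors and partners of the mTOR complexes passed by the adjusted p of edgeR or DESeq2, and 1 did at an unadjusted p under 0.05 by edgeR. This was TELO2, named after its value was seen, which passed without Doxy(-) 2 (log2 fold change -0.42, edgeR adjusted p = 0.00457).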

How the data were processed

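RNA of 4 cultures was sequenced from stranded TruSeq mRNA libraries. The study's methods and the submitters' processing notes name Trim Galore 0.6.6 with cutadapt 2.5 and STAR 2.7.9a on hg38, and the methods also name RSEM. The deposited tables instead hold Ensembl transcripts with effective lengths, in a layout these tools do not write, so the quantifier, the Ensembl release and the use of strand are not given in the sources used here. The authors deposited estimated counts, in which reads shared by several transcripts are split between them, and TPM, which the authors' quantifier scaled by transcript length.

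Transcripts were matched to GENCODE 44 on hg38 and summed per gene. Of 180253 identifiers 150691 (83.6%) matched, and the rest, with 9.66% to 9.89% of each library's count, stayed out. Rounded sums entered edgeR 4.0.16 under R 4.3.3 (TMM, filterByExpr with a minimum count of 10, glmQLFit and glmQLFTest, group as the only term, Benjamini-Hochberg adjustment over 13569 genes). The test has 2 residual degrees of freedom, and 95% confidence intervals use its moderated degrees of freedom. The common biological coefficient of variation was 6.53%. Library totals of 14042545 to 16618401 set the precision, and 3 counts, the limit that a count of 0 allows, were 0.204 to 0.233 CPM, which covers counting error only. Replicates differed by more than sampling noise (chi-square per degree of freedom of 4.03 in Doxy(-) and 2.91 in Doxy(+)). The test was checked on simulated data.

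The members and lists were chosen with earlier results of these data known. Values in every library are given for each member that passed, for the member with the smallest p in a subgroup where none passed, and for AMPK and low-count members; some other members were added after their values were seen. Of the other pathway genes, those past the adjusted p and a 2-fold change and the 6 with the smallest p are named. Individual results of some listed genes are not reported here. Pseudogenes are annotated for EIF4EBP1, EIF4EBP2, LAMTOR3, LAMTOR5, RHEB and SEC13, and exons of AKT1S1, CASTOR1, PRKAG1, PRR5 and RPS6KB1 overlap another gene on the same strand, so their values are less certain. Exons of AKT1S1, ITFG2, LAMTOR4, MLST8, MTOR, NPRL3, RICTOR, TBC1D7, TSC1, TSC2 and WDR59 overlap another gene on the opposite strand. Since the use of strand is not given, these values may include its reads.

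Alternatives were RLE size factors, other low-count filters, a replicate block, each library left out, length-scaled counts, unmatched copies added, unmatched identifiers tested beside the genes, DESeq2 1.42.0, limma 3.58.1 on log2(TPM + 1) and log2(TPM + 0.1), and an adjusted p under 0.01. A crossed pairing was added after the data were seen.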

Additional observations from a re-analysis of the deposited data

How the results depend on the processing

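For the 21 genes named by the rule, of 315 values under an alternative 276 kept their direction and their side of the threshold, 35 kept their direction but no longer passed, and 4 changed sign, all of PRCC, which did not pass in any analysis (log2 fold change -0.029 without Doxy(+) 2, from -0.029 to 0.30 over the left-out libraries, -0.19 with length-scaled counts, -0.15 with limma at either pseudocount). The called members were less stable than this pooled count shows. Of 15 alternatives each, LAMTOR3 and LAMTOR4 passed in 15, PRKAG2 in 12, TSC1 in 11, TBC1D7, LAMTOR1 and RPS6KB1 in 9, and PRR5 in 7. Among all 40 members tested, 18 changed sign under at least 1 alternative, none of them called, so that no direction can be read for these 18. Against 6 members higher and 2 lower, the counts were 2 and 1 with length-scaled counts, 3 and 1 with unmatched identifiers beside the genes, 2 and 0 with limma at either pseudocount, and 3 and 1 at an adjusted p under 0.01. Leaving out 1 library gave between 2 and 6 members higher and between 1 and 2 lower. Limma gave 642 genes higher and 334 lower over all genes at a pseudocount of 1, and 624 and 324 at 0.1, in place of 1325 and 1293. The all-gene counts also moved by more than 1.5 times to 670 and 576 with length-scaled counts, 644 and 616 with unmatched identifiers beside the genes, 621 and 554 at an adjusted p under 0.01, 647 and 565 without Doxy(+) 1, and 686 and 642 without Doxy(+) 2. Of the other pathway genes, 9 were lower, against 3 with length-scaled counts, 5 with unmatched identifiers, 2 with limma at either pseudocount and 3 at an adjusted p under 0.01. With 1 library left out, between 7 and 11 were higher and between 3 and 8 lower. In these fits the lone library of a group is assumed to vary like the others. The cause of these changes was not tested.

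Median log2 fold changes of subgroups moved with length-scaled counts, to 0.24 for GATOR1, -0.090 for GATOR2, -0.17 for KICSTOR, -0.12 for the substrates of mTORC1 and -0.15 for AMPK. With 1 library left out they ran from 0.078 to 0.21 for mTORC2, from -0.18 to 0.063 for GATOR1, from -0.017 to 0.080 for GATOR2, from -0.33 to 0.37 for the amino acid sensors, from -0.019 to 0.19 for KICSTOR and from -0.11 to -0.019 for AMPK. With the replicate number as a block, 6 members were higher and 2 lower, with no call changed, and 11 and 8 of the other pathway genes. The deviations of same-numbered libraries correlated at -0.01 over all genes and at -0.22 over genes whose mean CPM reached 10, which does not show what the number marks. The crossed pairing as a block gave 6 and 2 members and 11 and 6 other pathway genes.

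With 2 libraries a group, the intervals of CASTOR1 and NPRL3 span more than a 2-fold range, so changes of these genes could not be resolved. Both had few counts, and their Doxy(-) libraries lay apart, at 53.9 and 21.6 counts for CASTOR1 and 79.2 and 44.8 for NPRL3. The cause of the wide intervals was not tested.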

Other observations

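The following transcript levels were picked after their values were seen, are given as values without a test, and rest on how the authors' quantifier divided reads between transcripts of 1 gene. The gene MLST8 had a log2 fold change of 0.22 that did not pass, but the transcript MLST8-203 carried 21.0% and 28.0% of its estimated count in the Doxy(-) libraries and 69.2% and 72.1% in the Doxy(+) libraries. In estimated counts MLST8-203 was at 88.2 and 133 in Doxy(-) and at 302 and 404 in Doxy(+), while another protein-coding transcript of MLST8, of 1588 bases, was at 160 and 129.6 in Doxy(-) and at 9.19 and 38.3 in Doxy(+). Exons of MLST8 overlap BRICD5 on the opposite strand. Of LAMTOR2, whose summed level overlapped between the groups, the transcript LAMTOR2-203 carried 58.5% and 61.7% of the estimated count in Doxy(-) and 78.8% and 82.3% in Doxy(+).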
